A study of Mus musculus with 24 samples.

Results

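The loss of Kcnk3 in the adrenal gland of females that received a sham treatment was examined by setting the 3 arrays labelled female, Kcnk3 null and sham against the 3 arrays labelled female, WT and sham, 6 of 24 arrays in all. Arrays were assigned by these labels alone and not by any measured value, but the comparison was chosen with earlier results of these data known. Each array was hybridised with Cy3-labelled adrenal RNA on a one-colour Agilent mouse design, and the strain label is C57BL/6 in both groups. The other groups used below, of 3 arrays each, are Kcnk3 null castrated males and WT castrated males, Kcnk3 null sham males and WT sham males, and Kcnk3 null females and WT females injected with testosterone. Ages, the extent of the deletion, and whether an array held the RNA of a single animal are not given in the labels. Nothing says that the replicates came from separate animals, so p-values measure the spread between these samples, which may be technical.

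Kcnk3 encodes TASK1, a background potassium channel that is open at rest and holds the membrane potential negative. In the zona glomerulosa, the outer zone of the adrenal cortex, this potential is set largely by such channels. Depolarisation by angiotensin II or by plasma potassium opens calcium channels there and turns on Cyp11b2, the gene of aldosterone synthase. The inner cortex makes glucocorticoids under ACTH, from cholesterol that the cells take up or make themselves. Mice without this channel have been described as having altered adrenal zonation, in females and in males without androgen.

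All levels below are log2 processed signals minus the 75th percentile of the same array, so that 0 is the brightness under which 75% of the spots of that array lay. Differences are null minus WT in the same log2 units, and each ± is the standard error that limma estimated from all 24 arrays. Features were called where the p adjusted by Benjamini and Hochberg's method over 31077 features, 19413 of them with a gene symbol, was below 0.05. Levels of different genes come from different probes and are not compared with each other.

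Kcnk3 itself was read by 1 probe at chr5:30927090-30927149 (mm9). Its level was 4.49, 4.18 and 3.19 in the null arrays, against 6.02, 6.19 and 6.46 in the WT arrays. The null arrays thus carried 30.1%, 24.2% and 12.2% of the mean WT signal, and the groups did not overlap. The difference was -2.27 ± 0.32 (limma, adjusted p = 0.0014). The labels do not say whether the probe lies in the deleted part, which limits what its remaining signal tells about them.

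All 8 markers of cortical cells were measured and none of them was called in the reported fit, although Mrap was called lower in some alternatives. Their summed level, in units of the 75th percentile, was 1482, 1543 and 1885 in the null arrays and 1853, 1628 and 2288 in the WT arrays, so both groups carried strong cortex signal. Sex-linked transcripts went against the labels in part of the WT group. Ddx3y, an RNA helicase gene of the Y chromosome, read 0.121%, 0.119% and 0.186% of the mean of the male WT sham arrays in the null arrays, and 0.913%, 29.7% and 36.2% of it in WT arrays 1, 2 and 3. Eif2s3y, a translation factor gene of the Y chromosome, gave 0.195%, 0.112% and 0.178% in the null arrays against 1.53%, 21.7% and 56.2% in the WT arrays. Xist RNA, which coats the silenced X chromosome, was at 120%, 114% and 73.1% in the null arrays, relative to their own mean, and at 192%, 40.0% and 53.8% of that mean in the WT arrays. WT array 3 also had an RNA integrity number of 3, against 7 or 8 for the other 5 arrays, and it was scanned on another slide than null array 3. The comparison was therefore repeated with WT array 1 as the only WT array, called the fit on WT array 1 below, in which the lone array is assumed to vary like the other groups. In that fit Kcnk3 differed by -2.07 (adjusted p = 0.0511).

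The null and WT females differed in 151 of 31077 features, or 0.486%. Of these 109 were higher in the null arrays (0.351% of all features) and 42 were lower (0.135%). The share higher was 72.2%, and 59.2% of 250 calls after normexp background correction with quantile normalization. Replicate number as a block, numbers 1 and 2 of which coincide with slides 1 and 2, gave 293 calls that included all 151. The groups did not overlap for any of the 151, as they did not for 12.8% of all features (6.31% with null higher and 6.51% with null lower). Leaving out null array 1 left 66 calls, leaving out WT array 3 left 98, and the fit on WT array 1 called 270, of which 63 were among the 151. Slide as a block gave 222 calls, and slides 1 and 2 alone, each with 1 null and 1 WT array, gave 92 with the slide as a block, 57 of them among the 151. Leaving out the 9 arrays of the series with sex-linked signal against their label gave 63 calls, 27 of them among the 151. The 6 arrays fitted alone gave 0 calls in limma, with 1747 features at an unadjusted p under 0.05, against 2992 when all 24 arrays shared one estimate of the spread. Of 41 called genes among Kcnk3, the largest changes and the lists below, 18 stayed called when any 1 of the 6 arrays was left out. Among the 18 were the Y-linked genes Ddx3y and Eif2s3y, whose signal in WT arrays 2 and 3 went against the label. Called genes beyond the 41 were not followed one by one. Of these 18, Kcnk3, Npy1r, Rfx8 and Steap1 were not called in the fit on WT array 1, with adjusted p of 0.0511 to 0.0689, and the other 14 were. Of the remaining 23 genes, Fdps, Kcnmb4, Nek11, Nf2 and Rhcg were called in that fit and 18 were not.

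**Figure D1:**
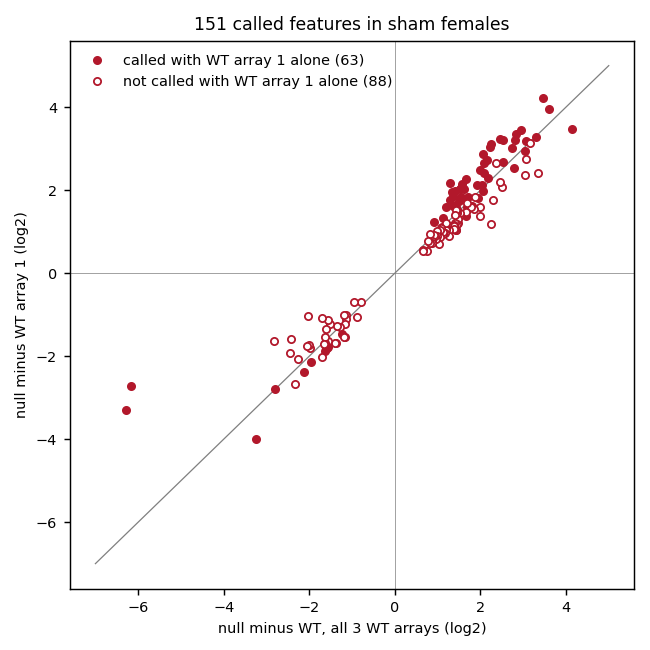
Null minus WT difference of the 151 called features (log2) over all 3 WT arrays on the x axis and over WT array 1 alone on the y axis, 1 point per feature, with the line of equality. Filled points mark the 63 features that were also called with WT array 1 as the only WT array. The 2 leftmost points are Eif2s3y and Ddx3y, which lie far above the line because WT arrays 2 and 3 carry most of their signal.

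The strongest rise was that of Tafa2, which encodes a secreted chemokine-like protein best known from the nervous system (probe at chr10:123177891-123177950, mm9). Tafa2 had levels of 0.99, 0.12 and 1.75 in the null arrays, against -2.52, -2.95 and -4.07 in the WT arrays. All null arrays lay above all WT arrays, and the difference was 4.13 ± 0.44 (adjusted p = 0.00012), or 17.5-fold. Npy1r, a receptor of neuropeptide Y, had 2.51, 1.61 and 0.75 in the null arrays and -1.13, -1.35 and -1.87 in the WT arrays, a difference of 3.07 ± 0.46 (adjusted p = 0.00237; 0.0665 in the fit on WT array 1). Ndnf, a secreted factor that supports neurons and vessels, had -2.77, -3.19 and -3.44 in the null arrays, against -6.58, -6.36 and -5.27 in the WT arrays (2.94 ± 0.37, adjusted p = 0.000595).

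Genes of 2 other secreted peptides fell. Tafa4, of the same family as Tafa2, had -6.39, -7.64 and -7.17 in the null arrays, none of them well above background, against -4.26, -4.01 and -4.54 in the WT arrays. It was at least 2.12-fold lower in the null females (adjusted p = 6.75e-05), where such a bound uses the dimmest probe well above background on each null array. Ecrg4, the precursor of a secreted peptide linked to cell growth arrest, had 3.89, 3.93 and 2.63 in the null arrays and 5.62, 5.17 and 5.55 in the WT arrays (-1.96 ± 0.29, adjusted p = 0.00196). Of 30 measured members of the neuropeptide and neurotrophin list, 3 rose and 2 fell, against 0.486% of all features called. The median difference was -0.06 (0.06 against WT array 1), beside -0.03 over all features. The list was chosen with earlier results known, so its count is not independent evidence. All 5 of these genes stayed called when any 1 array was left out.

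**Figure D2:**
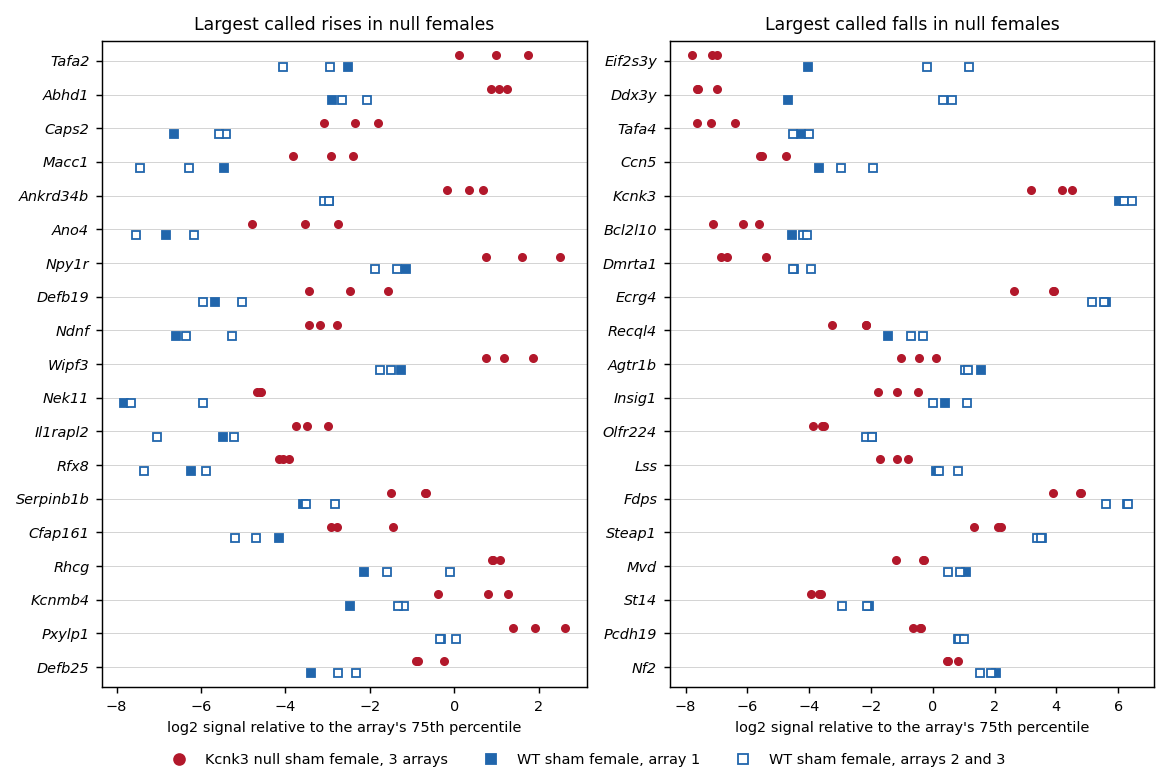
Level of 19 of the largest called rises (left) and 19 of the largest called falls (right) in each array, as log2 signal relative to the array's 75th percentile. Red circles are the 3 null arrays, the filled square is WT array 1 and open squares are WT arrays 2 and 3. In each row the 3 null arrays lie on one side of the 3 WT arrays.

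Wipf3 and Pxylp1 were among the 20 largest rises. Wipf3, which binds actin regulators of the WASP family, had 1.86, 1.19 and 0.76 in the null arrays and -1.27, -1.49 and -1.76 in the WT arrays (2.78 ± 0.27, adjusted p = 4.26e-05). Pxylp1, a phosphatase that acts in proteoglycan synthesis, rose by 2.18 ± 0.30 (adjusted p = 0.00112). Each of these genes had lower values in every WT array than in every null array, and each stayed called in the fit on WT array 1. Markers of capsule and stroma were measured for 9 genes, of which none was called. Their summed level, in units of the 75th percentile, was 181, 167 and 180 in the null arrays and 141, 132 and 119 in the WT arrays, groups that did not overlap. Sums of other lists did not overlap either, among them the sodium pump genes below (271, 262 and 341 in null against 240, 243 and 250 in WT arrays). The part of capsule and stroma RNA in the rises was not tested. In whole glands, a change in the number of cells of a type and a change in RNA per cell cannot be told apart.

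Ankrd34b, an ankyrin repeat gene of little known function, was among the largest rises. Its level was 0.68, 0.36 and -0.16 in the null arrays, against -2.98, -3.08 and -2.98 in the WT arrays, and the difference of 3.31 ± 0.31 had adjusted p = 4.26e-05. Leaving out any 1 array left its adjusted p at 0.000531 or below. The fit on WT array 1 gave adjusted p = 0.00416.

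Some rises started from signals that no WT array showed well above background, so only a lower bound can be given. Caps2, which encodes a calcium-binding protein, averaged -2.42 in the null arrays and -5.88 in the WT arrays and was at least 9.37-fold higher (adjusted p = 0.00566). Macc1, a regulator of growth factor signalling, was at least 5.47-fold higher (adjusted p = 0.0161) and averaged -3.05 in the null arrays and -6.40 in the WT arrays. Ano4, of the anoctamin family of calcium-activated membrane proteins, was at least 4.15-fold higher (adjusted p = 0.0298), with 2 of 3 null arrays well above background and means of -3.70 in null and -6.85 in WT arrays. Rfx8, of the RFX transcription factor family, was at least 3.28-fold higher (adjusted p = 0.00816) and the kinase gene Nek11 at least 2.19-fold higher (adjusted p = 0.0298). Of these 5, Caps2 and Rfx8 stayed called when any 1 array was left out, while Macc1 and Ano4 lost the call when any 1 of 4 arrays was left out and Nek11 when any 1 of 5 was left out.

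The remaining large rises belong to varied families. The beta-defensin genes Defb19 (3.06 ± 0.47, adjusted p = 0.00309) and Defb25 (2.16 ± 0.30, adjusted p = 0.00112), which encode small antimicrobial peptides, rose and stayed called with any 1 array left out. Cfap161, named for cilia and flagella, had -1.44, -2.92 and -2.79 in the null arrays, against -4.15, -4.69 and -5.20 in the WT arrays (2.30 ± 0.45, adjusted p = 0.0253). It lost the call without null array 1, WT array 2 or WT array 3. Il1rapl2, a receptor-like gene of the interleukin-1 receptor family, rose by 2.51 ± 0.45 (adjusted p = 0.0129), and Serpinb1b, a protease inhibitor gene, by 2.36 ± 0.43 (adjusted p = 0.0139). With 1 array left out Il1rapl2 lost the call in 2 of 6 fits and Serpinb1b in 4. Rhcg, an ammonium transporter best known from the kidney, had 0.91, 0.90 and 1.09 in the null arrays, against -2.14, -1.59 and -0.10 in the WT arrays (2.25 ± 0.46, adjusted p = 0.0345). The WT arrays with Y-linked signal, 2 and 3, were the nearer to the male WT sham mean of 1.58 for Rhcg, and the difference from WT array 1 was 3.11 (adjusted p = 0.0138). Rhcg lost the call in 5 of 6 fits with 1 array left out, with adjusted p up to 0.136.

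Other genes called higher included Gpha2, a glycoprotein hormone subunit, Ror2 and Fzd10, receptors of Wnt proteins, the collagen chain Col4a6, the collagen receptor Ddr1, Enpp2, which makes lysophosphatidic acid, and the calcineurin regulator Rcan2. Ccdc65, Kif6, Efhb, Nme5, Ulk4 and Ppil6 were also called higher.

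Among potassium channels, loss of Kcnk3 signal went with higher signals of a pore-forming and an accessory subunit. Kcnmb4, an accessory subunit of the large-conductance calcium-activated channel, had 1.27, 0.80 and -0.38 in the null arrays, against -2.47, -1.20 and -1.33 in the WT arrays (2.22 ± 0.47, adjusted p = 0.0383). Kcnq1, a voltage-gated channel, had 1.72, 2.14 and 1.15 in the null arrays and 0.49, 0.23 and -0.04 in the WT arrays (1.44 ± 0.28, adjusted p = 0.0203). Each lost its call when any 1 of 4 arrays was left out, although the groups did not overlap. The mean of Kcnmb4 in male WT sham arrays was 0.74, so that WT arrays 2 and 3, which carried Y-linked signal, lay between WT array 1 and the males. Of 25 measured potassium channel genes outside the background channel family, these 2 rose, against 0.351% of all features called higher, and none fell. The list median was 0.28 against -0.03 over all features. With 1 array left out, called rises ran from 0 (without null array 1, null array 2 or WT array 3) to 3 (without null array 3). The list was chosen with earlier results known, so its count is not independent evidence.

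Of the 11 measured genes of the background channel family only Kcnk3 was called, and the median was -0.08. Kcnk9, which encodes the related channel TASK3, was chosen for mention after its values were seen: it had 3.40, 3.26 and 3.26 in the null arrays, against 4.22, 3.76 and 3.98 in the WT arrays (-0.68 ± 0.30, adjusted p = 0.462). No member of 34 calcium handling genes was called (median 0.04). There, the calcium pump Atp2b1 (0.51 ± 0.18, adjusted p = 0.29) and the ryanodine receptor Ryr3 (-0.77 ± 0.24, adjusted p = 0.21) had the smallest p. None of 10 sodium pump genes was called either (median 0.22). Atp1b2, a beta subunit, gave 0.75 ± 0.19 (adjusted p = 0.0954).

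In the zona glomerulosa list, 1 of 14 measured genes fell and none rose (median -0.25). The faller was Agtr1b, a receptor of angiotensin II (probe at chr3:20213539-20213598, mm9), which also was the 1 called member of 12 renin-angiotensin genes (median -0.35). Agtr1b had 0.11, -0.43 and -1.03 in the null arrays, against 1.58, 1.03 and 1.13 in the WT arrays (-1.70 ± 0.35, adjusted p = 0.0322). It lost the call when any 1 of 5 arrays was left out, with adjusted p up to 0.158. The following genes were chosen for mention after their values were seen. Cyp11b2 had 1.90, 0.55 and 0.84 in the null arrays and 0.82, 0.79 and 1.61 in the WT arrays, overlapping groups whose difference was 0.02 ± 0.49 (adjusted p = 0.997). Agtr1a, the other angiotensin receptor gene of this type, had 3.89, 3.85 and 4.08 in the null arrays and 4.60, 4.48 and 4.77 in the WT arrays, which did not overlap and differed by -0.68 ± 0.18 (adjusted p = 0.104).

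Of 18 measured genes of steroid synthesis 1 rose and none fell, with a median of -0.14. The riser was Nr0b1, which encodes DAX1, a repressor of steroidogenic genes. Nr0b1 had 3.04, 2.93 and 2.94 in the null arrays, against 1.45, 2.02 and 1.20 in the WT arrays (1.42 ± 0.28, adjusted p = 0.0273), and lost the call when any 1 of 5 arrays was left out. It was also the 1 called member of 11 genes of ACTH action and the zona fasciculata, of which 10 had negative differences (median -0.38). Mrap, which carries the ACTH receptor to the membrane, was not called at -0.99 ± 0.22 (limma, adjusted p = 0.0543). Mrap gained the call in 8 alternatives, among them replicate number as a block (adjusted p = 0.0124), and stayed uncalled in 14. Over these alternatives its difference ran from -1.375 to -0.685. Nr5a1, the master regulator of steroidogenic cells, had -0.29 ± 0.26 (adjusted p = 0.835).

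The cholesterol synthesis genes leaned lower in the null females. All 20 were measured and all 20 had negative differences, with a median of -1.14 against -0.03 over all features, and the groups did not overlap, null lower, for 13 of 20 against 6.51% of all features. After the test over all features 4 had fallen, among them Lss, Fdps and Mvd, and 16 were not called. The fit on WT array 1 called 6 and the slide block 8, while leaving out null array 3, WT array 1 or WT array 2 left 1, so the count rests on single arrays. With 1 array left out the median ran from -1.39 (without WT array 3, 6 calls) to -0.93 (without null array 3, 1 call). A list chosen with earlier results known gives no independent evidence of its direction.

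The 3 enzymes described act between mevalonate and the first sterol. Mvd, which makes isopentenyl diphosphate, had -0.31, -0.29 and -1.18 in the null arrays, against 1.09, 0.88 and 0.48 in the WT arrays (-1.41 ± 0.30, adjusted p = 0.0423). Fdps, which makes farnesyl diphosphate, had 4.75, 4.79 and 3.90 in the null arrays and 6.28, 6.32 and 5.60 in the WT arrays (-1.59 ± 0.28, adjusted p = 0.0119). Lss, which closes the sterol rings, had -1.17, -0.82 and -1.71 in the null arrays, against 0.11, 0.22 and 0.82 in the WT arrays (-1.61 ± 0.28, adjusted p = 0.00984). In each of these genes null array 3 was the lowest of the 6. With 1 array left out the adjusted p reached up to 0.057 for Lss, 0.062 for Fdps and 0.198 for Mvd.

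Control of the pathway runs through SREBP transcription factors, which bind sterol regulatory elements, and through INSIG proteins, which hold SREBPs back when sterols are plentiful. Of 16 genes of cholesterol control and uptake 1 fell and none rose (median -0.30). The faller was Insig1, at -1.15, -0.46 and -1.78 in the null arrays, against 0.40, 0.00 and 1.10 in the WT arrays (-1.63 ± 0.34, adjusted p = 0.0347). Insig1 lies 2.52 Mb from Kcnk3 on chromosome 5, and it lost the call when any 1 of 4 arrays was left out.

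Promoters of the fallen cholesterol genes are shown because these genes moved together and because SREBPs and the CCAAT-binding factor NF-Y are known to act on such promoters. Of Lss, Mvd, Insig1 and Fdps, 3 of 4 matched the RefSeq table of GRCm38.p6, which holds 250 bases before to 50 after the gene start, printed 5′ to 3′ along the gene. Capitals mark CCAAT, the sterol regulatory type sequence CACNCCAC and the E-box CACGTG, each searched on both strands, so that ATTGG is CCAAT on the other strand. CCAAT overlaps none of the other motifs here.
Lss, chr10:76531355-76531654, plus strand: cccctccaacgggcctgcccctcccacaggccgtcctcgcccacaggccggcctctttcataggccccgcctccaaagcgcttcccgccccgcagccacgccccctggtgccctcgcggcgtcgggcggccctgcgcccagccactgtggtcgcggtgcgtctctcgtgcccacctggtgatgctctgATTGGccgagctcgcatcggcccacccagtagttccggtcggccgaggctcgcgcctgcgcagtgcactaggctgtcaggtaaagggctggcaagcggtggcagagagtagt
Mvd, chr8:122443373-122443672, minus strand: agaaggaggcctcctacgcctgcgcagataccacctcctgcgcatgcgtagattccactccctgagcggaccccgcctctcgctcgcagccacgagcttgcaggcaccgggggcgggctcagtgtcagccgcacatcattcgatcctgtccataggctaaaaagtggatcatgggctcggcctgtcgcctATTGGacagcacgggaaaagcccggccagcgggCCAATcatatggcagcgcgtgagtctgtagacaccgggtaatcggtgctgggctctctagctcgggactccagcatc
Insig1, chr5:28071162-28071461, plus strand: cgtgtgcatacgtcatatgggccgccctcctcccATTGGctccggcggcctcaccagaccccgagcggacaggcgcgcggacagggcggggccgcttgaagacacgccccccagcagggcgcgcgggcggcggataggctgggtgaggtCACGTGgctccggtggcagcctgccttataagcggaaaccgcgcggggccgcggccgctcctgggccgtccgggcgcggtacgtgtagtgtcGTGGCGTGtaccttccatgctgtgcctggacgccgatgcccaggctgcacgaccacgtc
CCAAT was present in all 3, once in Lss, in 2 copies in Mvd and once in Insig1, and in 41.1% of 27025 genes with such a promoter. CACNCCAC was found in Insig1 alone of the 3, and in 7.12% of genes. Insig1 also held the E-box, present in 8.09% of genes. These matches describe the letters of the windows only.

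**Figure D3:**
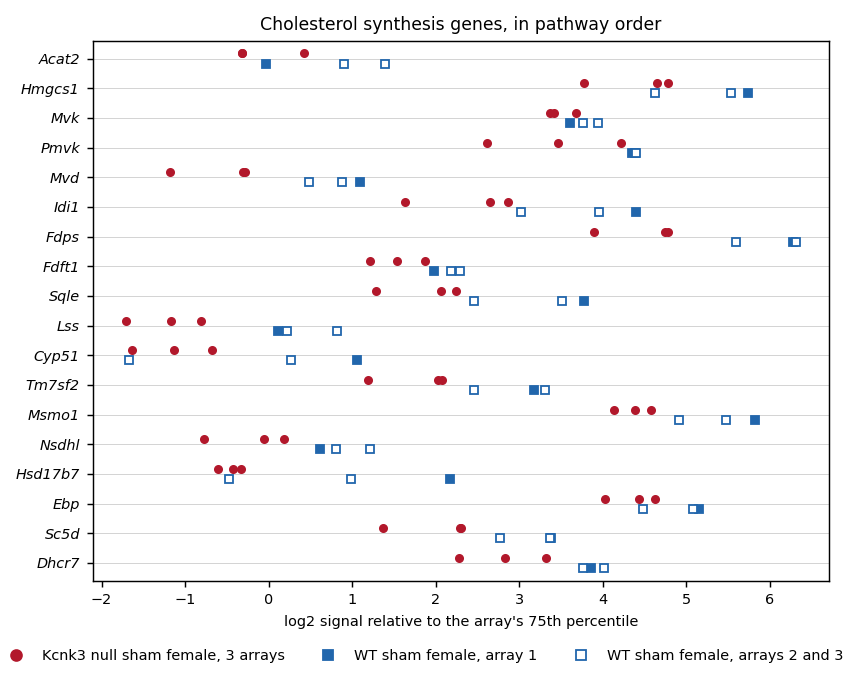
Level of 18 cholesterol synthesis genes in each array, in pathway order from top to bottom, as log2 signal relative to the array's 75th percentile. Red circles are the 3 null arrays, the filled square is WT array 1 and open squares are WT arrays 2 and 3. The null arrays lie to the left in most rows, without overlap for 12 of the 18 genes shown.

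Fatty acid synthesis genes leaned the same way without any call. All 12 had negative differences (median -0.84), and the groups did not overlap for 7 of 12, against 6.51% of all features with null lower. Scd1, a fatty acid desaturase, had 6.21, 7.05 and 5.25 in the null arrays, against 7.39, 7.58 and 7.46 in the WT arrays (-1.31 ± 0.35, adjusted p = 0.122), and Acss2, which makes acetyl-CoA, gave -1.51 ± 0.41 (adjusted p = 0.125). Markers of adipocytes moved with them, all 10 with negative differences (median -0.92) and none called. Their summed level was 848, 1184 and 461 in the null arrays and 1163, 1109 and 1564 in the WT arrays, in units of the 75th percentile. The adipokine gene Retn (-2.13 ± 0.50, adjusted p = 0.0678) and the lipid droplet gene Cidec (-1.02 ± 0.35, adjusted p = 0.273) had the smallest p. Null array 3 had the lowest sum in both lists (536 for fatty acid synthesis), and the medians without it were -0.58 for fatty acid synthesis, -0.37 for adipocytes and -0.93 for cholesterol synthesis. Leaving out null array 2 instead called 4 of the 12 fatty acid genes lower (median -1.18) and 1 adipocyte gene (median -1.20). Against WT array 1 the medians were -0.595 for fatty acid synthesis and -0.515 for adipocytes. On slides 1 and 2, each with 1 null and 1 WT array, they were -0.67 and -0.334 for fatty acid synthesis. For adipocytes they were -0.482 and 0.009. The part of adipocyte RNA in the differences of these lists was not tested.

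The X-zone, an inner zone of the young female mouse adrenal, was covered by 2 marker genes, both far lower in the null arrays on average. Pik3c2g had -0.52, -1.51 and -3.85 in the null arrays, against 1.52, 1.63 and 0.55 in the WT arrays (-3.19 ± 1.35, adjusted p = 0.437). Akr1c18, which breaks down progesterone, had 6.69, 6.02 and 2.85 in the null arrays and 8.53, 8.37 and 7.05 in the WT arrays (-2.80 ± 1.75, adjusted p = 0.695). Neither group overlapped with the other, but the shared spread over 24 arrays was wide for both genes and neither was called.

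Of 33 measured genes of Wnt signalling 1 rose and 1 fell (median 0.12), against 0.486% of all features called. The list does not hold Ror2 and Fzd10, which were also called higher. Dkk3, a secreted protein related to Wnt inhibitors, had 4.50, 3.99 and 3.78 in the null arrays, against 2.47, 2.29 and 2.09 in the WT arrays. Its difference of 1.81 ± 0.25 (adjusted p = 0.00124) stayed called with any 1 array left out and in the fit on WT array 1 (1.62, adjusted p = 0.0495). Ccn5, a matricellular protein gene induced by Wnt, had -5.59, -5.54 and -4.74 in the null arrays and -3.69, -2.99 and -1.94 in the WT arrays (-2.42 ± 0.46, adjusted p = 0.0173). Only 1 of 3 null arrays was well above background for Ccn5. Against WT array 1 its difference was -1.60 (adjusted p = 0.24), the smallest gap to any WT array.

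The other large falls were scattered over functions. Recql4, a DNA helicase gene, fell by 1.71 (SE 0.31, adjusted p = 0.0133), and Steap1, a metalloreductase gene, by 1.57 (SE 0.26, adjusted p = 0.00574). Recql4 had -1.44, -0.69 and -0.32 in WT arrays 1, 2 and 3, beside a male WT sham mean of -0.07. Against WT array 1 its difference was -1.09. For 44 of the 151 called features the male WT sham mean lay beyond WT array 1, on the side away from the null arrays. The part of Y-linked signal of WT arrays 2 and 3 in these differences was not tested. Pcdh19, a protocadherin of cell adhesion, had -0.41, -0.37 and -0.63 in the null arrays, against 0.81, 0.85 and 1.02 in the WT arrays (-1.36 ± 0.25, adjusted p = 0.0133). St14, a membrane serine protease gene, fell by 1.37 (SE 0.30, adjusted p = 0.047), and Nf2, the gene of the tumour suppressor merlin, by 1.24 (SE 0.23, adjusted p = 0.0163). The olfactory receptor gene Olfr224 gave -1.63 ± 0.30 (adjusted p = 0.0133). Bcl2l10, of the family of apoptosis regulators, was at least 2.11-fold lower (adjusted p = 0.0208) and Dmrta1, a DMRT transcription factor gene, at least 2.04-fold lower (adjusted p = 0.0371). No null array was well above background for either, at means of -6.29 and -6.31 in null arrays and -4.28 and -4.33 in WT arrays. Bcl2l10 had -4.57, -4.19 and -4.08 in WT arrays 1, 2 and 3, beside a male WT sham mean of -3.97. Of these genes Steap1 alone stayed called with any 1 array left out. Eif2s3y and Ddx3y, at least 20.2-fold and 17.2-fold lower in the null arrays, had the largest falls among the called features. WT arrays 2 and 3 carried most of their WT signal, and against WT array 1 their differences were -3.29 and -2.72. Prkcd, Gnai1, Psd3, Cbr2, Opn3 and Mmel1 were also called lower.

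In 20 of the 30 lists no gene was called in limma, against 0.486% of all features. Those not yet described follow with the 2 members of smallest p. Cell cycle genes leaned higher, with 23 of 25 positive and a median of 0.53, but the median was -0.09 against WT array 1. Bub1b (0.87 ± 0.31, adjusted p = 0.292) and Mcm3 (0.49 ± 0.20, adjusted p = 0.409) had the smallest p there. In the cyclic nucleotide list (median -0.18 over 30 genes) they were Npr3, a natriuretic peptide receptor (1.04 ± 0.29, adjusted p = 0.158), and Prkar1a, a regulatory subunit of protein kinase A (-0.38 ± 0.14, adjusted p = 0.309). Among 17 clock genes (median 0.19, but -0.28 against WT array 1) they were Rora (-0.65 ± 0.19, adjusted p = 0.178) and Npas2 (-1.70 ± 0.53, adjusted p = 0.213). Immediate early genes had a median of -0.41 over 14 genes, with Fosb at -1.77 ± 1.04 (adjusted p = 0.662) and Fosl2 at 0.34 ± 0.21 (adjusted p = 0.689). The acute-phase list had a median of 0.00 over 18 genes, with Orm1 at -1.95 ± 0.69 (adjusted p = 0.295) and Orm2 at -1.85 ± 0.75 (adjusted p = 0.396).

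Markers of other cell types were likewise not called in any member. Among 9 capsule and stroma genes, Gli1, a marker of capsular progenitor cells, had 1.83, 1.63 and -0.09 in the null arrays, against -0.16, -0.60 and -0.13 in the WT arrays (1.42 ± 0.36, adjusted p = 0.099), and Col3a1 gave 0.77 ± 0.24 (adjusted p = 0.218). Chromaffin genes of the medulla had a median of -0.08 over 11 genes, with Penk at 0.29 ± 0.12 (adjusted p = 0.433) and Th at -0.48 ± 0.36 (adjusted p = 0.774). The median was -0.04 for 10 endothelial genes (0.05 against WT array 1), with Emcn at -0.39 ± 0.18 (adjusted p = 0.492) and Esam at 0.33 ± 0.16 (adjusted p = 0.534). It was 0.16 for 9 macrophage genes, but -0.44 against WT array 1, with C1qc at 0.48 ± 0.26 (adjusted p = 0.618) and Mrc1 at 0.30 ± 0.21 (adjusted p = 0.757). Lymphocyte genes had a median of -0.08 over 7 genes, but 0.22 against WT array 1, with Lck at 0.30 ± 0.30 (adjusted p = 0.859) and Cd4 at -0.50 ± 0.59 (adjusted p = 0.893).

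For 7 mast cell genes the median was 0.54, with Cma1 at 1.64 ± 0.52 (adjusted p = 0.222) and Fcer1a at 1.33 ± 0.52 (adjusted p = 0.375). The median was 0.47 for 4 erythroid genes, with Hba-a1 at 0.83 ± 0.53 (adjusted p = 0.71) and Alas2 at 0.63 ± 0.71 (adjusted p = 0.887). The 10 genes of kidney and liver had -0.12 as median (0.14 against WT array 1), with Ahsg at -0.72 ± 1.58 (adjusted p = 0.95) and Aqp2 at -0.46 ± 0.52 (adjusted p = 0.89). Gonadal genes had 0.15 over 6 genes, with Gdf9 at -0.55 ± 0.44 (adjusted p = 0.795) and Sox9 at 0.25 ± 0.20 (adjusted p = 0.801).

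**Figure D4:**
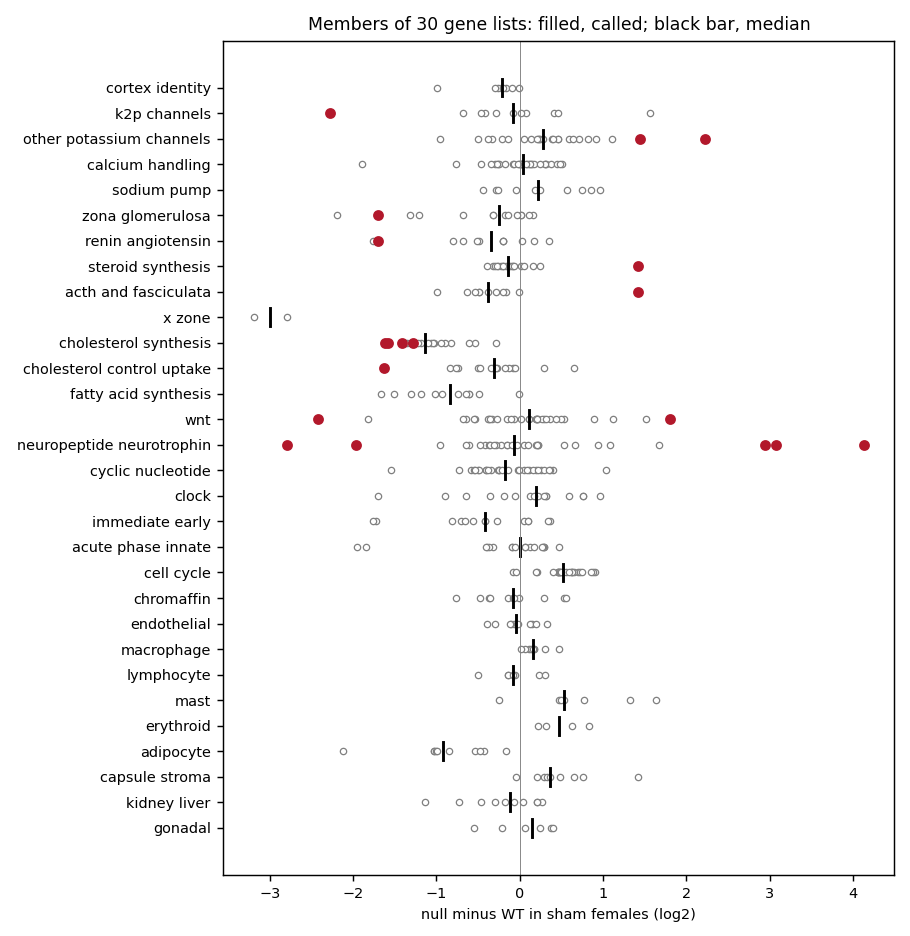
Null minus WT difference in sham females (log2, x axis) for the measured members of 30 gene lists, 1 list per row and 1 point per gene. Filled points are called genes and the black bar is the median of the list. The cholesterol synthesis, fatty acid synthesis, adipocyte, X-zone and cortex rows lie wholly below 0, and called genes stand in 10 of the 30 rows.

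Calls near Kcnk3 on chromosome 5 were counted from the probe positions. Within 5 Mb of the Kcnk3 probe 4 of 216 features were called (1.85%, against 0.486% of all features), namely Kcnk3, Insig1, an unnamed probe and Abhd1, a neighbour of Kcnk3 annotated in RefSeq as a transcribed pseudogene. It lies 0.33 Mb from the Kcnk3 probe, and Abhd1 had 1.06, 1.26 and 0.88 in the null arrays, against -2.89, -2.67 and -2.07 in the WT arrays (3.61 ± 0.35, adjusted p = 4.26e-05). Its difference was also called in castrated males (2.86, adjusted p = 0.000268) and sham males (3.52, adjusted p = 9.46e-05), and was 1.10 in testosterone females (adjusted p = 0.32).

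With the window widened to 10 Mb, chosen after the data were seen, 14 of 386 features were called (3.63%). The additional 10 were probes without a gene symbol at chr5:22070550-23205256 (mm9), in 3 places 7.72 to 8.86 Mb from Kcnk3. All 10 were higher in the null females, by 1.29 to 2.83. They were higher by 0.92 to 2.60 in castrated males, where 8 were called, by 1.00 to 2.31 in sham males, where 7 were called, and by 0.85 to 1.44 in testosterone females, where 0 were called. Probes at one place lie within about 1 kb of each other and may share a transcript. They were not matched to a gene annotation here.

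The null effect in sham females was set beside that in the other settings, which use other arrays but the same estimate of the spread. Of the 151 called features 73 were also called in castrated males, all in the same direction, which is 48.3% of the 151 and 33.6% of the 217 called there (0.698% of all features). In sham males 11 of the 151 were called, 9 of them in the same direction, with 26 called there (0.0837%). Abhd1 and 7 of the 10 unnamed chromosome 5 probes were among those 9. In testosterone females 6 were called, 4 in the same direction, with 11 called there (0.0354%). Kcnk3 itself and the 2 Y-linked genes Ddx3y and Eif2s3y were among these 4. The medians of the 109 risers were 1.51 in sham females, 1.18 in castrated males, 0.25 in sham males and 0.09 in testosterone females. Sex-linked signal went against the label in null castrated male arrays 1 and 2, null sham male arrays 1 and 2 and all 3 WT testosterone female arrays, so these comparisons are between arrays as labelled.

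**Figure D5:**
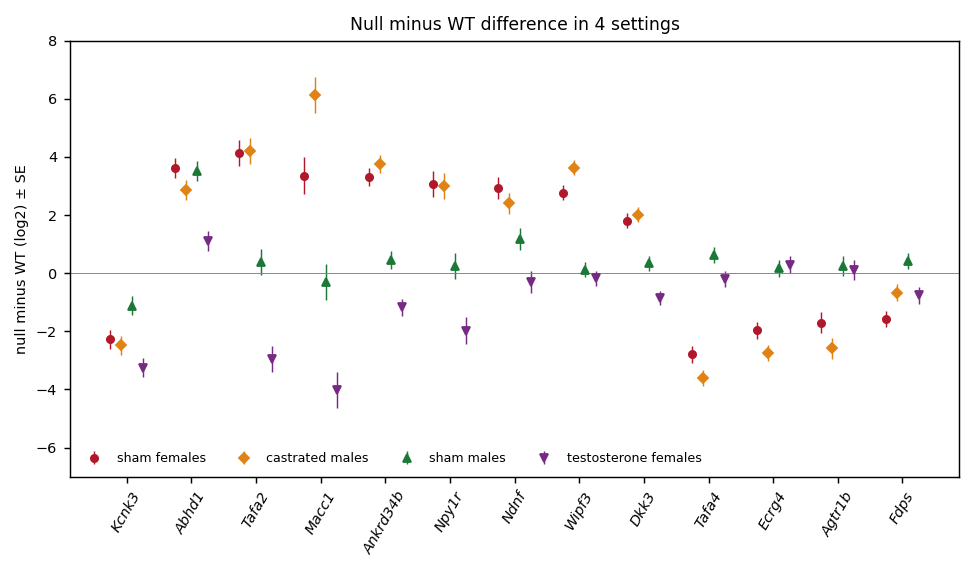
Null minus WT difference (log2) with its standard error, from 3 null and 3 WT arrays each, for 13 genes named in the text, in sham females, castrated males, sham males and testosterone females. For Tafa2, Ankrd34b and Wipf3 the sham female and castrated male points lie at 2.78 or above and the other settings at 0.46 or below.

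The difference between settings was tested directly. The null effect in sham females differed from that in castrated males in 1 of 31077 features (0.00322%). This was an unnamed probe that was higher in null castrated males and not called in sham females. The part of sex-linked signal in it was not tested. The null effect in sham females differed from that in sham males in 32 features (0.103%). Tafa2 (3.74 ± 0.63, adjusted p = 0.0258), Ankrd34b (2.85 ± 0.43, adjusted p = 0.0141), Wipf3 (2.65 ± 0.38, adjusted p = 0.0104) and DXBay18 (2.32 ± 0.40, adjusted p = 0.0274) had more positive effects in sham females. Their effects in sham males were 0.39, 0.46, 0.13 and -0.23, none of them called. Kcnk3 itself was not called in sham males either, at -1.12 (limma, adjusted p = 0.651). Its difference was -2.48 in castrated males and -3.25 in testosterone females. Relative to the mean of WT sham females, Kcnk3 signal was 22.8%, 41.5% and 20.8% in null sham male arrays. It was 70.9%, 66.9% and 42.7% in WT sham male arrays.

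Frzb, a secreted Wnt antagonist (-4.97 ± 0.79, adjusted p = 0.0189), Clec4e, an innate immune receptor (-4.32 ± 0.77, adjusted p = 0.0329), Cst8 (-4.14 ± 0.62, adjusted p = 0.0141), Nrep (-3.86 ± 0.67, adjusted p = 0.0288) and Ms4a10 (-3.42 ± 0.58, adjusted p = 0.0258) had the most negative differences between the effects among genes with a symbol, predicted and clone symbols left aside. In these genes the null sham females did not differ from WT by the test, and 4 of 5 rose in null sham males. All 5 had higher means in WT sham females than in WT sham males. These were 3.51 against -2.55 for Frzb, -1.51 against -7.63 for Clec4e and 2.91 against -1.39 for Cst8. They were 4.05 against -0.32 for Nrep and 2.62 against -0.94 for Ms4a10. Null sham male arrays 1 and 2 carried sex-linked signal against their label, and its part in the rises in males was not tested. Tafa4 fell in sham females and not in sham males, and the effects differed by -3.41 ± 0.40 (adjusted p = 0.00129). The median of the cholesterol synthesis list was -0.67 in castrated males, 0.00 in sham males and -0.47 in testosterone females.

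Between sham and testosterone females the effects differed in 30 features (0.0965%), 26 of them more positive in sham females. With unnamed probes and predicted genes left aside, the largest were Macc1 (7.38 ± 0.89, adjusted p = 0.00131), Tafa2 (7.08 ± 0.63, adjusted p = 3.58e-05), Npy1r (5.05 ± 0.65, adjusted p = 0.00173), Ankrd34b (4.48 ± 0.43, adjusted p = 6.81e-05) and the mast cell protease gene Cma1 (4.13 ± 0.74, adjusted p = 0.0314). Macc1 and Tafa2 were lower in null than in WT testosterone females, at -4.03 (limma, adjusted p = 0.0176) and -2.95 (adjusted p = 0.0162). This was opposite to their rise in sham females. The means of Macc1 were -6.51 in null and -2.49 in WT testosterone females, and -6.40 in WT sham females. For Tafa2 these means were -2.93, 0.02 and -3.18. WT testosterone females thus stood above WT sham females in both genes, and the part of their Y-linked signal in this was not tested. Ndnf, Wipf3, Dkk3, Cfap161 and Pxylp1 were also among the 26. Wif1, a Wnt inhibitor (-3.31 ± 0.58, adjusted p = 0.0278), Tafa4 (-2.58 ± 0.40, adjusted p = 0.00824) and Ecrg4 (-2.25 ± 0.41, adjusted p = 0.0352) had more negative effects in sham females.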

How the data were processed

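Adrenal RNA was labelled with Cy3 and hybridised on one-colour arrays, 24 in all, on 4 slides, with 8 groups of 3. Per the file headers, the deposited scanner files hold spot intensity values from Agilent Feature Extraction, whose processed signal is background-subtracted and detrended and not normalized between arrays. The deposited value table holds log2 values, whose column medians lie between 6.3264 and 6.3421. Its normalization is not given in the sources used here, and it served as an alternative.

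The processed signal was divided by the 75th percentile of its array and log2 was taken. Outlier spots were left out (160 to 283 per array), spots of a probe were averaged, and probes well above background on at least 3 arrays were kept, with the brightest probe per symbol. This left 31077 features from 62976 spots. Symbols came from RefSeq through 26422 accessions and 4589 symbols, 2224 names were kept as deposited, and 22446 probes had no name. Array 75th percentiles ran from 426 to 1099, 57.0% to 64.8% of spots were well above background, none was saturated, and the number of arrays limits the precision.

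Group means were fitted over all 24 arrays with limma 3.58.1 in R 4.3.3 (16 residual degrees of freedom), with Benjamini-Hochberg adjustment. The scripts were tested on simulated data. Where a probe was not well above background on any array of a group, a bound replaces the fold. The alternatives covered background correction, normalization, filters, probe choice, slide, replicate number, RNA integrity number, array weights and arrays left out. The replicate numbers come from the labels, and null and WT sham females of one number deviated together from their group means (r = 0.335, 0.26 and 0.436), although over all same-number pairs of the series the correlation averaged 0.226 and went down to -0.352. The reported fit has no block, and the replicate number as a block is an alternative.

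Named genes are Kcnk3, the 20 largest called rises and falls with a symbol whose groups do not overlap, every called list member, the 2 members of smallest p in a list without a call, and the 5 largest differences between settings in each direction. Further called genes are named without values and were picked from the calls. Some genes that this rule names are not reported here. The comparison, the gene lists and the tests were chosen with earlier results of these data known.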

Additional observations from a re-analysis of the deposited data

Results flagged for a closer look

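The null minus WT effect in sham females was set against that in the other settings, and genes are given here because a limma test of the difference itself was past an adjusted p of 0.05. Each value is the effect in sham females minus the effect in the other setting, on the log2 scale.

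Against castrated males, the 1 such feature was the unnamed probe A_30_P01023652 at -7.30. Its mean was 3.05 in null sham females and 2.23 in WT sham females, and 0.46 in null castrated males and -7.66 in WT castrated males. In sham males the mean was -0.30 in null and -7.72 in WT arrays. Null castrated male arrays 1 and 2 carried sex-linked signal against their label, and its part in this value was not tested.

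Against sham males, the more positive values were 3.74 for Tafa2, 2.85 for Ankrd34b, 2.65 for Wipf3 and 2.32 for DXBay18. The more negative values were -3.41 for Tafa4, -3.42 for Ms4a10, -3.86 for Nrep, -4.14 for Cst8, -4.32 for Clec4e and -4.97 for Frzb. Null sham male arrays 1 and 2 carried sex-linked signal against their label, and its part in these values was not tested.

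Against testosterone females, the values were 7.38 for Macc1, 7.08 for Tafa2, 5.05 for Npy1r, 4.48 for Ankrd34b, 4.13 for Cma1 and 3.49 for Cfap161. They were 3.24 for Ndnf, 2.96 for Wipf3, 2.66 for Dkk3 and 2.32 for Pxylp1. Negative values were -2.25 for Ecrg4, -2.58 for Tafa4 and -3.31 for Wif1. All 3 WT testosterone female arrays carried Y-linked signal, and its part in these values was not tested.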

How the results depend on the processing

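The count of 151 features for null against WT sham females was 250 with normexp and quantile normalization (59.2% higher), 236 with the deposited table (63.6% higher), 1304 with array quality weights (51.2% higher), 270 on WT array 1 and 293 with the replicate block (58.0% higher). With the 6 arrays alone it was 0 in limma, with 1747 at an unadjusted p under 0.05. With alternatives chosen after seeing the data, it was 63 without the 9 arrays of sex-linked signal against their label and 92 within slides 1 and 2. Leaving out 1 array gave 66 to 130, lowest without null array 1.

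For the difference from castrated males, 1 feature in the reported fit, the count was 0 with normexp and quantile normalization, the deposited table, probes well above background on all 24 arrays, the compared arrays only, the slide block, the RNA integrity covariate and without slide 4. At an unadjusted p under 0.05 these had 1099, 1156, 719, 960, 1710, 1912 and 1479 features. It was 12 with array weights and 25 on WT array 1, and 0 to 5 with 1 array left out (611 to 1654 at an unadjusted p under 0.05).

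For the difference from sham males, 32 in the reported fit, it was 19 with no filter, 3 on the compared arrays only, 70 with the slide block, 67 with the replicate block, 62 with the RNA integrity covariate, 1045 with array weights, 66 on WT array 1 and 75 without slide 4. Leaving out 1 array gave 3 to 63. For the difference from testosterone females, 30 in the reported fit, it was 3 on the compared arrays only, 46 with the slide block, 176 with array weights, and 19 (without WT testosterone female array 1) to 50 (without null sham female array 3) with 1 array left out. Where fewer arrays entered, fewer degrees of freedom did too, and otherwise the cause was not tested.

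Over the named genes and their alternatives, 1497 values kept their direction and side of the threshold, 261 lost the call, 36 gained it and 14 turned direction, all of genes that were not called in any of these fits. On WT array 1, and likewise without the 9 arrays, C1qc was -0.195, Mrc1 -0.19, Cd4 0.151 and Aqp2 0.258. Without slide 4, and likewise without WT array 3, Cd4 was 0.187 and Aqp2 0.163. C1qc was -0.08 within slides 1 and 2, and with 1 array left out Cd4 ran from -0.865 to 0.187, Aqp2 from -0.84 to 0.163 and Alas2 from -0.305 (without null array 3) to 1.346. The cause was not tested. The scaling moved the median of all features between -0.025 and 0.0078.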
